A study of Homo sapiens with 16 samples.

Results

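The genes described here are 39 genes of the unfolded protein response and of the ATF4 stress program, read in 2 human cell lines after knockdown of the splicing regulator HNRNPH1. They were taken by symbol from both expected-count tables and summed per gene, and all 39 were found among the 61906 genes of the tables. None of their measured values entered the choice, although earlier results of these data were known when the list was drawn. The genes were kept apart by 6 roles: 6 transcription factors of the integrated stress response (ISR), 11 amino acid and one-carbon genes driven by ATF4, 5 other ATF4 and stress targets, 4 sensors and factors of the unfolded protein response (UPR), 9 chaperone and folding genes of the endoplasmic reticulum (ER), and 4 genes of ER-associated degradation.

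HEK-293T cells derive from embryonic kidney and express the large T antigen of SV40; HT-1080 cells derive from a fibrosarcoma. Cells of both lines received 20 nM of an siRNA against HNRNPH1 (siHNRNPH1) or of a negative control siRNA (siNegative), and RNA was taken 48 h later. HNRNPH1 encodes an RNA-binding protein that binds G-rich stretches of pre-mRNA. Each of the 4 groups had 3 short-read libraries, described by the submitters as biological replicates, and 1 pool of full-length cDNA (IsoSeq). The lines were grown in different media, so line and medium cannot be told apart, and the number and sequence of the siRNAs are not given in the sources used here.

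When unfolded proteins build up in the ER, the sensors IRE1 (encoded by ERN1), ATF6 and PERK (encoded by EIF2AK3) signal to the nucleus. IRE1 cuts a short segment out of XBP1 mRNA, which allows the active XBP1 factor to be made, and XBP1 and cleaved ATF6 switch on genes for ER chaperones and for the removal of misfolded proteins. PERK and other kinases phosphorylate the initiation factor eIF2, which lowers general translation and favours translation of ATF4. ATF4 in turn drives genes for amino acid synthesis, amino acid uptake, mitochondrial one-carbon metabolism and, with DDIT3 (CHOP), stress signalling. Much of ATF4 activity is set by translation, so its mRNA level is not a measure of its protein.

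The chaperone arm and the ATF4 arm are read through different promoter elements, and the sequences below show where letters of these elements lie near the start sites of the genes whose levels follow. RefSeq promoter windows (GRCh38.p14, 250 bases before to 50 after a start) were given for 34 of the 39 genes. Both strands were searched for the ER stress response element ERSE (CCAAT, any 9 bases, CCACG), for ERSE-II (ATTGG, any 1 base, CCACG), for the XBP1-bound element UPRE (TGACGTGG) and for the ATF4-C/EBP element (TGATGNAA). Each sequence is written 5′ to 3′ along the strand named, capitals mark the fixed letters of the element, and the coordinates are those of the element without its flanks.
HSPA5, ERSE, chr9:125241391-125241409, minus strand: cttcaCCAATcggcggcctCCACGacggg
HSP90B1, ERSE, chr12:103930216-103930234, plus strand: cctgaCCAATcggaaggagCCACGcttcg
HSP90B1, ERSE, chr12:103930321-103930339, minus strand: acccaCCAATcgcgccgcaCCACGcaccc
CALR, ERSE, chr19:12938384-12938402, minus strand: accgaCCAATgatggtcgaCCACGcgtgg
CRELD2, ERSE, chr22:49918554-49918572, minus strand: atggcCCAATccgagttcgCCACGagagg
PDIA6, ERSE, chr2:10812853-10812871, minus strand: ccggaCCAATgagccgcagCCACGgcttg
XBP1, ERSE, chr22:28800603-28800621, minus strand: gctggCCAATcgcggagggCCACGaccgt
SDF2L1, ERSE-II, chr22:21642114-21642124, minus strand: gggttttgATTGGtCCACGcttccgag
HERPUD1, ERSE-II, chr16:56932025-56932035, plus strand: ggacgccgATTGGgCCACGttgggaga
ASNS, ATF4-C/EBP element, chr7:97872469-97872476, minus strand: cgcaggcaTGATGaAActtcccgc
CHAC1, ATF4-C/EBP element, chr15:40953262-40953269, minus strand: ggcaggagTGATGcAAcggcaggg
HERPUD1, ATF4-C/EBP element, chr16:56931966-56931973, minus strand: gcacgggcTGATGcAAcccgccgc

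ERSE letters stood in the promoter windows of 6 of the 34 genes, against 0.0916% of the 27305 genes with a window (0.0769% of all 35116 windows of this length; the 34 genes have 48). In 5 of them, HSPA5, HSP90B1, CALR, CRELD2 and PDIA6, the gene makes an ER chaperone or folding enzyme, and the remaining gene is XBP1. The HSPA5 element began 66 bases before the start site and the XBP1 element 52 bases before it. ERSE-II letters stood at SDF2L1 and HERPUD1 and at 0.0696% of all genes (0.0541% of windows). UPRE letters were in 0 of the 34 genes and in 0.927% of all genes (0.729% of windows). The ATF4-C/EBP letters stood at 5 genes, ASNS, CHAC1, ATF3, SLC3A2 and HERPUD1, and at 4.46% of all genes (3.62% of windows). At ASNS this element began 68 bases before the start site. These matches describe letters and not bound sites.

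The library totals ran from 107.7 to 121.0 M (mega) expected counts in HEK-293T, and in HT-1080 from 27.3 to 32.7 M. Levels are given as CPM, the count of a gene divided by its library total in M. HNRNPH1 was 1107, 1105 and 1121 CPM in the HEK-293T siNegative libraries and 234, 376 and 394 in siHNRNPH1, and 635, 606 and 617 against 232, 231 and 228 in HT-1080. Of the markers of HT-1080, CD44 was 1836 to 3130 CPM there and 1.51 to 2.76 in HEK-293T. CAV1, ANXA1, PLAU and TGFBI were also far higher in HT-1080, whereas MMP1 was low there too (siNegative mean 1.87 CPM). The HEK-293T marker NEFM was 252 to 490 CPM in HEK-293T and 0 in 5 of 6 HT-1080 libraries. LIN28B and ZIC2 were expressed in both lines and were higher in HEK-293T. NEFL went the other way, with siNegative means of 66.9 CPM in HEK-293T and 109.6 in HT-1080. PAX2 was low in both lines (siNegative means 1.34 and 0.39 CPM). Replicate 1 of HEK-293T siHNRNPH1 stood apart: across 16073 genes its log2 CPM correlated with replicates 2 and 3 at a Pearson r of 0.946 and 0.941, against 0.999 between those replicates. In HT-1080, siNegative replicate 2 correlated with its group at 0.994, against 0.998 for the other pair.

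Among the 39 genes, replicate 1 of HEK-293T siHNRNPH1 differed from the mean of replicates 2 and 3 by over 0.5 on the log2 CPM scale in 21, 13 of them higher and 8 lower. Replicates 2 and 3 differed from each other by that much in 1 gene, NUPR1. The library was also the one with the lowest HNRNPH1. The part of this deeper knockdown in these differences was not tested. HEK-293T results and differences between the lines are therefore given with it, and for many genes and counts also without it. Where no value without it is given, that is no sign that the value stayed the same.

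**Figure D1:**
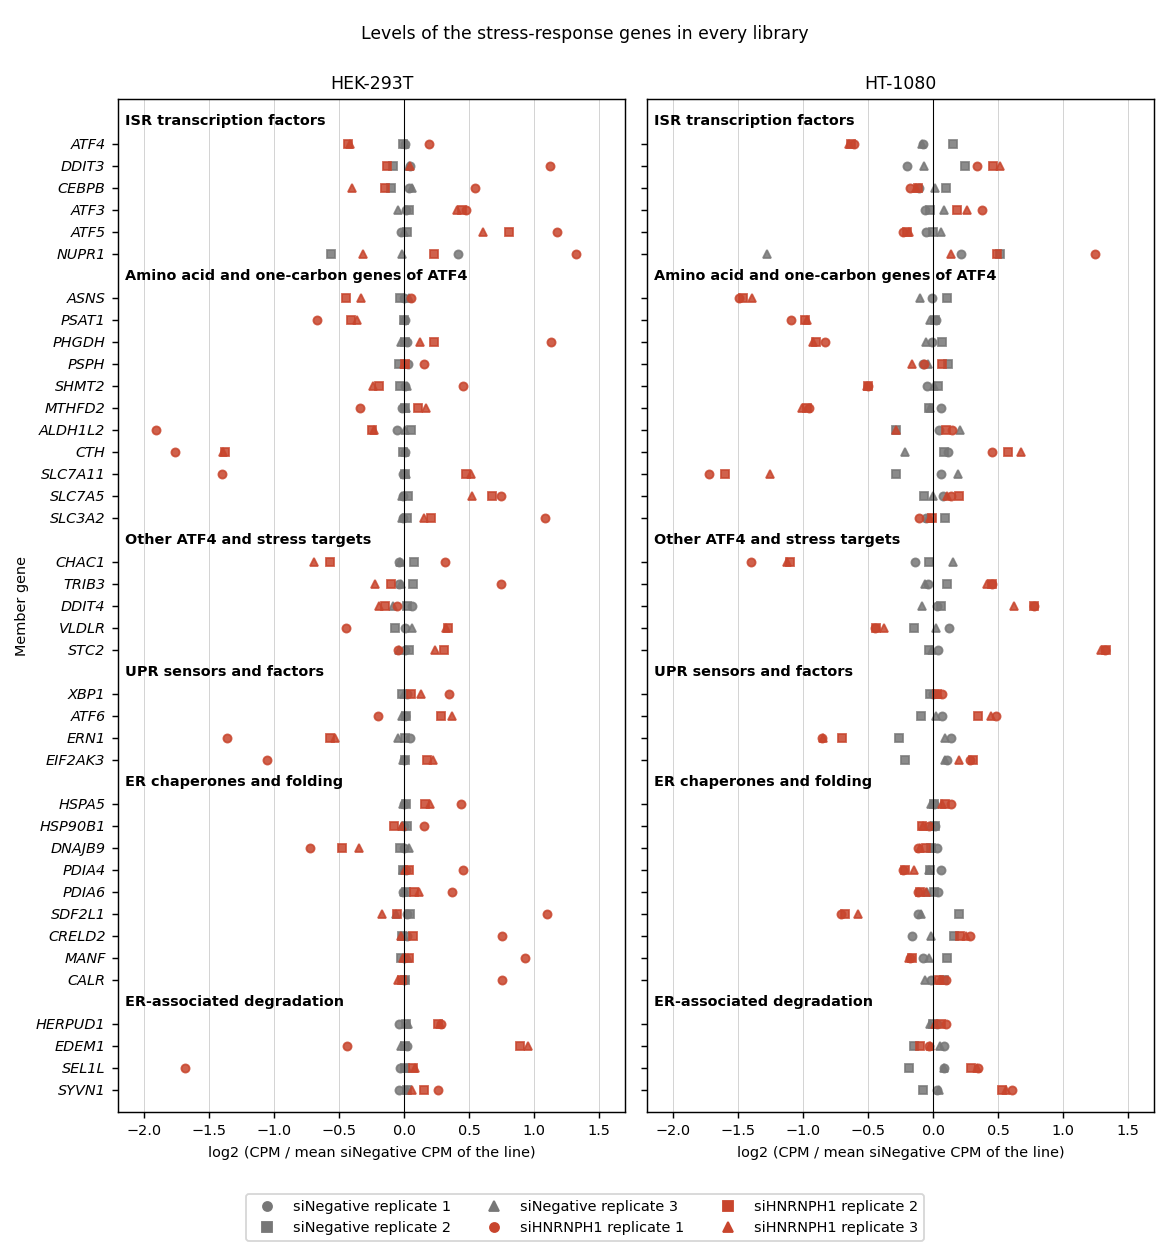
Level of each of the 39 genes in every library, as log2 of its CPM over the mean siNegative CPM of the same line (horizontal axis), grouped by role, with HEK-293T on the left and HT-1080 on the right. Grey symbols are siNegative and red symbols siHNRNPH1, and the shape gives the replicate. In HEK-293T the red circles (replicate 1) lie away from the other red symbols for 21 genes, and in HT-1080 the red symbols mostly lie together.

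HNRNPH1 knockdown moved many of these genes in HT-1080, at about the rate of all genes. Of 38 genes tested there, 26 (68.4%) changed at a BH-adjusted p under 0.05 (edgeR), 8 higher and 18 lower, against 65.3% of the 16145 genes tested, of which 32.7% of genes were higher and 32.6% lower. With scaling to library size alone, 27 changed, 12 higher and 15 lower, against 65.2% of all genes (36.8% higher and 28.4% lower). With a spread shared by all 12 libraries the count was 15, 5 higher and 10 lower, against 29.3% of 21276 genes (14.8% higher and 14.5% lower). The calls of ATF5, CEBPB, DDIT3, TRIB3, SEL1L and of the ER genes DNAJB9, HSP90B1, MANF, PDIA4, PDIA6 and SDF2L1 were lost there. Without siNegative replicate 2 all 26 kept their call. NUPR1 did not pass the expression filter in HT-1080. The median log2 fold change was -0.12 over these genes and 0.01 over all genes. In these bulk libraries a lower level in each cell and fewer cells that express a gene cannot be told apart.

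In HEK-293T, 5 of the 39 genes changed (edgeR, BH-adjusted p under 0.05), ATF5 and SLC7A5 higher and PSAT1, CTH and DNAJB9 lower, against 10.0% of 19966 genes (5.12% higher and 4.88% lower). With library size alone the count was 4, 3 higher and 1 lower, against 10.4% of all genes (5.94% higher and 4.42% lower). Without siHNRNPH1 replicate 1 it was 29, 14 higher and 15 lower, against 61.8% of 20329 genes (30.5% higher and 31.3% lower), and the first 5 kept their call and direction. Leaving out any 1 siNegative library gave 0 calls in edgeR (6 to 7 genes at an unadjusted p under 0.05). Over all genes those fits called 20 of 20483, 0 of 20523 and 0 of 20480, with 3525, 3517 and 3486 at an unadjusted p under 0.05 (edgeR). Leaving out siHNRNPH1 replicate 2 or 3 left CTH alone, against 245 of 20371 and 639 of 20382 genes. Testing with no expression filter also left CTH alone, against 1302 of 33482 genes, and DESeq2 called 7, against 3982 of 19966 genes. With a spread shared by all 12 libraries it was 8, 4 higher and 4 lower, against 21.4% of all genes (12.8% higher and 8.55% lower). With the replicate number as a block the count was 0 (7 at an unadjusted p under 0.05, edgeR), and it was also 0 over all 19966 genes (4169 at an unadjusted p under 0.05, edgeR). The median log2 fold change was 0.14 with that library, -0.04 without it, and 0.02 over all genes.

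A test of the line by siRNA interaction over all 12 libraries asked whether the response differed between the lines. It called 10 of the 39 genes (edgeR, BH-adjusted p under 0.05), 3 with a more positive and 7 with a more negative change in HT-1080, against 19.0% of 21276 genes (8.13% more positive and 10.8% more negative). Without HEK-293T siHNRNPH1 replicate 1 it called 27, 7 more positive and 20 more negative, against 49.0% of all genes (22.7% and 26.4%), and the 10 were among them. With library size alone it called 10, 4 more positive and 6 more negative, against 19.2% of all genes (10.1% and 9.09%). That scaling moved the median difference of all genes from -0.07 to 0.04 on the log2 scale, and differences between the lines below are HT-1080 minus HEK-293T with TMM scaling, to be read against that median of -0.07. Of the 10, 7 were amino acid and one-carbon genes.

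**Figure D2:**
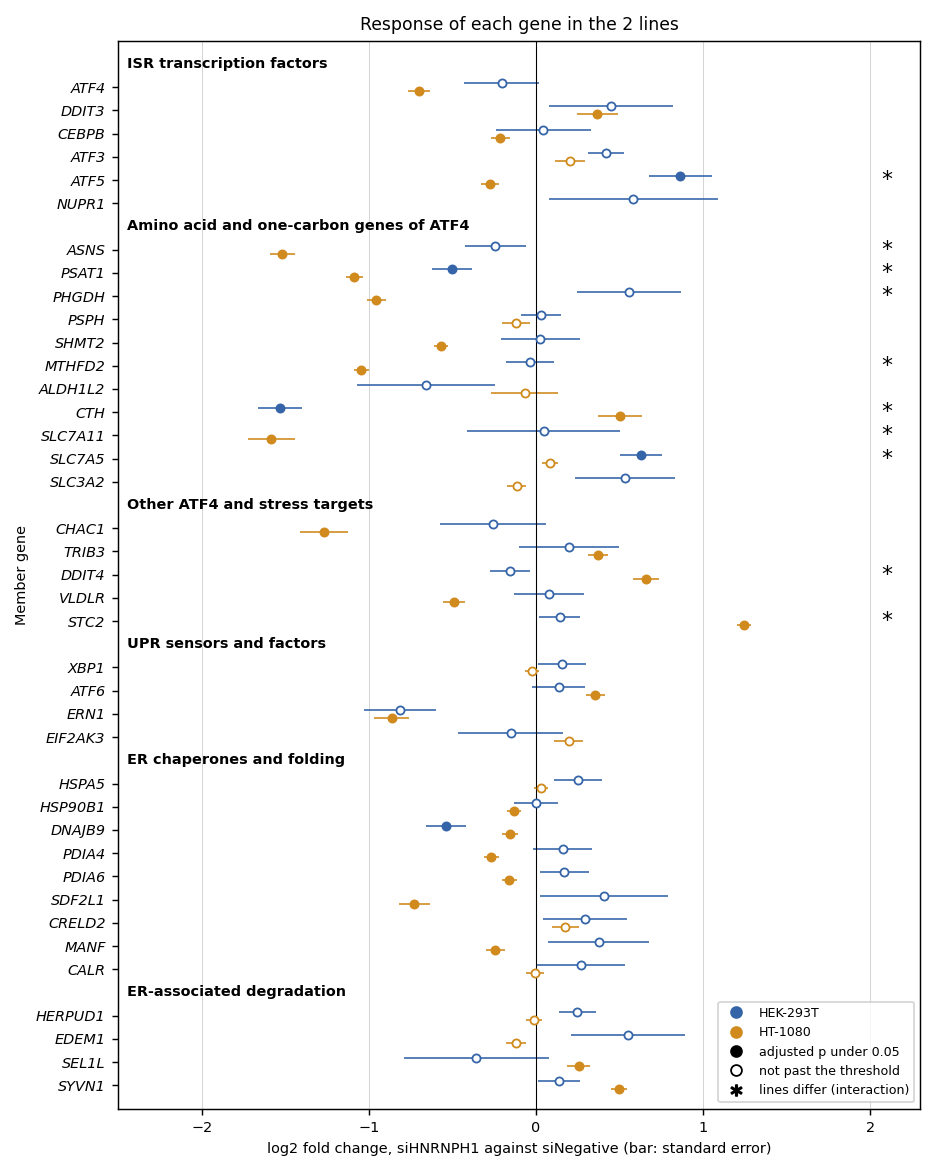
Log2 fold change of siHNRNPH1 against siNegative (horizontal axis, edgeR, all 3 replicates per group) for each gene by role, with bars of 1 standard error, blue for HEK-293T and orange for HT-1080. Filled points passed a BH-adjusted p of 0.05 and open points did not; an asterisk marks the 10 genes whose responses differed in the interaction test. The HT-1080 points of ASNS, PSAT1, MTHFD2 and SLC7A11 lie below -1, and the HEK-293T standard error is the larger one for 37 of the 38 genes tested in both lines, all but CTH.

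Among the ISR transcription factors, ATF4 itself fell in HT-1080. ATF4 (ENSG00000128272.18) was 238, 279 and 237 CPM in the HT-1080 siNegative libraries and 165, 162 and 160 in siHNRNPH1. All 3 knockdown libraries lay below the whole control range, and ATF4 fell by 0.70 on the log2 scale (SE 0.07, n = 3 per group, edgeR, BH-adjusted p = 1.22e-05). The HEK-293T libraries held 429, 425 and 429 CPM in siNegative and 489, 316 and 320 in siHNRNPH1, so that replicate 1 lay above the controls and the other replicates below them. The HEK-293T log2 fold change was -0.20 (SE 0.22, edgeR, BH-adjusted p = 0.607), and -0.48 without replicate 1 (BH-adjusted p = 6.07e-13). The lines did not differ past the threshold for ATF4 with that library (difference -0.58, SE 0.26, edgeR, BH-adjusted p = 0.158), but did without it (-0.27, BH-adjusted p = 0.0119).

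DDIT3 (ENSG00000175197.13), the CHOP factor that acts downstream of ATF4, moved the other way in HT-1080. It was 5.13, 6.99 and 5.62 CPM in siNegative and 7.47, 8.12 and 8.43 in siHNRNPH1, without overlap, and rose by 0.37 on the log2 scale (SE 0.12, edgeR, BH-adjusted p = 0.024). This call was lost when either siNegative replicate 1 or 3, or siHNRNPH1 replicate 2 or 3, was left out (BH-adjusted p = 0.0671 to 0.0887). In HEK-293T, DDIT3 was 7.71, 7.08 and 7.70 CPM in siNegative and 16.3, 6.82 and 7.71 in siHNRNPH1, so only replicate 1 stood clear of the controls. Its log2 fold change there was 0.45 with replicate 1 and -0.10 without it (edgeR, BH-adjusted p = 0.496 and 0.251). The DDIT3 gene overlaps MARS1 in the RefSeq annotation, and because the strandedness of the counting is not stated its level is uncertain.

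ATF5 (ENSG00000169136.13), a close relative of ATF4, went in opposite directions in the lines. In HEK-293T the gene was at 16.1, 16.6 and 16.4 CPM in siNegative and 36.9, 28.7 and 24.9 in siHNRNPH1, every knockdown library above every control. It rose by 0.86 on the log2 scale (SE 0.19, edgeR, BH-adjusted p = 0.0432), and by 0.66 without replicate 1. In HT-1080 it was 31.5, 32.9 and 34.2 CPM in siNegative and 28.0, 28.5 and 28.8 in siHNRNPH1, a fall of smaller size but again without overlap (log2 fold change -0.28, SE 0.05, edgeR, BH-adjusted p = 0.0012). Between the lines the effect differed by -1.22 (SE 0.22, edgeR, BH-adjusted p = 0.00315), and -0.98 without HEK-293T replicate 1. ATF5 overlaps NUP62 in the annotation, so part of its reads may belong to that gene. CEBPB, a bZIP partner of ATF4, fell in HT-1080 (log2 fold change -0.21, edgeR, BH-adjusted p = 0.00892), and ATF3, a stress-induced bZIP factor, had log2 fold changes of 0.42 (HEK-293T) and 0.20 (HT-1080) that missed the threshold (edgeR, BH-adjusted p = 0.065 and 0.0666). Without HEK-293T siHNRNPH1 replicate 1 ATF3 rose there by 0.37 (BH-adjusted p = 1.96e-07). NUPR1, a small stress-induced chromatin protein, stayed under 1 CPM in all 12 libraries.

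Among the amino acid and one-carbon genes of ATF4 were the 2 largest falls of the 39 genes in HT-1080, SLC7A11 and ASNS. In HT-1080, 7 of 11 changed (edgeR, BH-adjusted p under 0.05), 1 higher and 6 lower, or 63.6%, near the 65.3% of all genes called there; the median log2 fold change was -0.57, against 0.01 over all genes. The 6 that fell were ASNS, PSAT1, PHGDH, SHMT2, MTHFD2 and SLC7A11, and each did so under every scaling tried. In HEK-293T 3 of 11 changed, 1 higher and 2 lower, with a median of 0.03, against 10.0% of all genes, and without replicate 1 the count was 10, 5 higher and 5 lower, against 61.8%. The interaction test called 7 of the 11, against 19.0% of all genes, CTH with a more positive change in HT-1080 and the other 6 with a more negative one. Without replicate 1 it called 9, 1 more positive and 8 more negative, against 49.0%.

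ASNS (ENSG00000070669.17) makes asparagine, and its span overlaps CZ1P-ASNS in the RefSeq annotation. HT-1080 libraries held 27.0, 29.4 and 25.5 CPM in siNegative and 9.70, 9.89 and 10.3 in siHNRNPH1, 2.86-fold lower and far outside the control range. The log2 fold change was -1.52 (SE 0.08, edgeR, BH-adjusted p = 1.41e-07). In HEK-293T, siNegative gave 107, 104 and 109 CPM and siHNRNPH1 110, 78.2 and 84.7; replicates 2 and 3 lay below the controls and replicate 1 above them. The HEK-293T log2 fold change was -0.24 (edgeR, BH-adjusted p = 0.449), and -0.45 without replicate 1 (BH-adjusted p = 1.24e-09). The fall was larger in HT-1080 by 1.35 (interaction -1.35, SE 0.22, edgeR, BH-adjusted p = 0.00163), and the interaction was -1.12 without replicate 1.

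Of the serine synthesis enzymes, PSAT1 and PHGDH fell in HT-1080, and PSPH, which catalyses the last step, did not change past the threshold in either line. PSAT1 (ENSG00000135069.14) fell in both lines. It was 100, 99.4 and 96.9 CPM in the HT-1080 siNegative libraries and 46.1, 49.8 and 50.4 in siHNRNPH1 (log2 fold change -1.09, SE 0.05, edgeR, BH-adjusted p = 8.76e-08). HEK-293T gave 194, 193 and 192 CPM against 122, 145 and 150, again without overlap (log2 fold change -0.50, SE 0.12, edgeR, BH-adjusted p = 0.0487). The HEK-293T p rose to 0.0512 with RLE scaling and 0.0736 with library size alone, and fell to 1.57e-11 without replicate 1 (edgeR, BH-adjusted). The fall was deeper in HT-1080 by 0.65 on the log2 scale (interaction -0.65, SE 0.11, edgeR, BH-adjusted p = 0.00216), and the interaction was -0.69 without replicate 1. With no expression filter it missed the threshold (-0.56, BH-adjusted p = 0.0574).

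PHGDH (ENSG00000092621.13), the first enzyme of serine synthesis, was 58.7, 61.8 and 56.9 CPM in the HT-1080 siNegative libraries and 33.2, 31.6 and 31.1 in siHNRNPH1. The groups lay well apart, with a log2 fold change of -0.95 (SE 0.06, edgeR, BH-adjusted p = 3.76e-07). In HEK-293T it was 333, 329 and 321 CPM in siNegative and 717, 383 and 356 in siHNRNPH1. All 3 knockdown libraries were above the controls there, replicate 1 by far the most, with a log2 fold change of 0.56 (SE 0.31, edgeR, BH-adjusted p = 0.322) and of 0.12 without replicate 1 (BH-adjusted p = 0.00197). The lines differed by -1.60 (SE 0.35, edgeR, BH-adjusted p = 0.00975), and by -1.12 without that library.

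The mitochondrial folate enzyme MTHFD2 (ENSG00000065911.13) fell by about as much as PSAT1 in HT-1080. It was 103, 96.8 and 97.6 CPM in siNegative and 51.2, 50.7 and 49.2 in siHNRNPH1 (log2 fold change -1.05, SE 0.05, edgeR, BH-adjusted p = 7.04e-08). In HEK-293T the gene was at 191, 195 and 197 CPM in siNegative and 154, 209 and 218 in siHNRNPH1, with replicate 1 below the controls and replicates 2 and 3 above them. The HEK-293T log2 fold change was -0.04, and 0.08 without replicate 1 (edgeR, BH-adjusted p = 0.901 and 0.0262). The interaction was -1.08 with replicate 1 (SE 0.14, edgeR, BH-adjusted p = 0.000377) and -1.18 without it. SHMT2, which feeds one-carbon units into the same pathway, fell in HT-1080 (log2 fold change -0.57, edgeR, BH-adjusted p = 1.82e-06). Its interaction was -0.68 with replicate 1 and -0.35 without it (edgeR, BH-adjusted p = 0.103 and 7.41e-05). ALDH1L2, a further enzyme of mitochondrial folate metabolism, was under 2 CPM in all HT-1080 libraries and did not change there past the threshold. In HEK-293T the ALDH1L2 log2 fold change was -0.66 with replicate 1 and -0.30 without it (edgeR, BH-adjusted p = 0.369 and 5.4e-07).

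**Figure D3:**
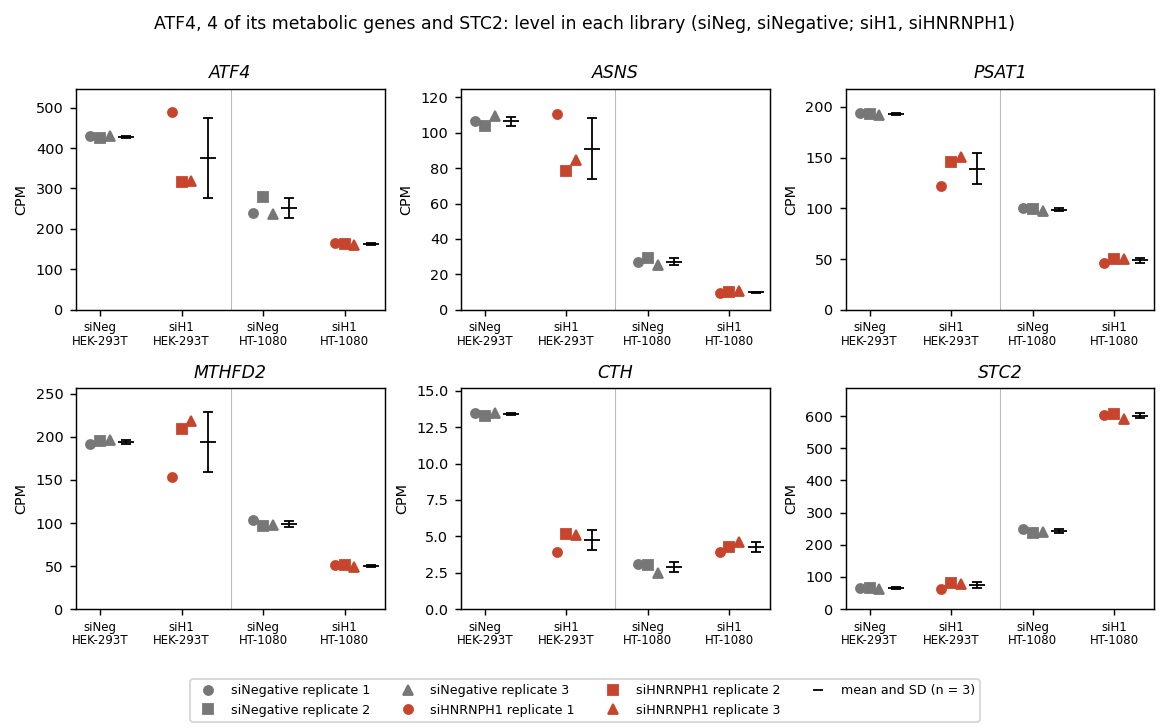
CPM (vertical axis, from 0) of ATF4, ASNS, PSAT1, MTHFD2, CTH and STC2 in each of the 12 libraries, with siNegative in grey, siHNRNPH1 in red, replicates as circle, square and triangle, and the mean and SD of 3 libraries in black. In HT-1080 the groups do not overlap in any of the 6 panels, and CTH goes down in HEK-293T and up in HT-1080.

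CTH (ENSG00000116761.12), which releases cysteine from cystathionine, was the one gene of this group that rose in HT-1080 with TMM scaling. It was 3.11, 3.05 and 2.48 CPM in siNegative and 3.94, 4.29 and 4.60 in siHNRNPH1, a rise of 0.50 on the log2 scale (SE 0.13, edgeR, BH-adjusted p = 0.00711). HEK-293T gave 13.4, 13.3 and 13.5 CPM in siNegative and 3.94, 5.14 and 5.10 in siHNRNPH1, and all 3 knockdown libraries were below the controls. Its HEK-293T log2 fold change was -1.53 (SE 0.13, edgeR, BH-adjusted p = 0.00562), and -1.44 without replicate 1. CTH had the largest difference between the lines of the 39 genes, 1.96 (SE 0.17, edgeR, BH-adjusted p = 4.03e-05), and 1.90 without replicate 1. The HEK-293T call was lost when any 1 siNegative library was left out (BH-adjusted p = 0.0636 to 0.0641), with a log2 fold change of -1.53 to -1.54. Each of those fits called 20 genes or fewer over all genes tested.

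Of the transporters, SLC7A11 (ENSG00000151012.13), which takes up cystine in exchange for glutamate, had the largest fall of the 39 genes in HT-1080. It was 23.7, 18.7 and 26.03 CPM in siNegative and 6.92, 7.50 and 9.55 in siHNRNPH1, 3.00-fold lower and without overlap (log2 fold change -1.58, SE 0.14, edgeR, BH-adjusted p = 6.90e-06). The HEK-293T libraries held 29.4, 29.7 and 29.8 CPM in siNegative and 11.2, 41.2 and 42.2 in siHNRNPH1. Replicate 1 was below the controls and replicates 2 and 3 above, with a log2 fold change of 0.05 over all 3 (edgeR, BH-adjusted p = 0.962) and 0.44 without replicate 1 (BH-adjusted p = 1.92e-09). The interaction was -1.69 (SE 0.51, edgeR, BH-adjusted p = 0.0416) and -2.07 without replicate 1 (BH-adjusted p = 4.79e-08). Leaving out any other 1 of the 12 libraries raised the p over all libraries to 0.0621 to 0.104, and library size alone, no filter and the replicate block raised it to 0.0655, 0.0564 and 0.0927 (edgeR, BH-adjusted).

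SLC7A5 (ENSG00000103257.9), the large neutral amino acid transporter, rose in HEK-293T. It was 157, 160 and 155 CPM in siNegative and 264, 252 and 226 in siHNRNPH1, with every knockdown library above the controls (log2 fold change 0.63, SE 0.13, edgeR, BH-adjusted p = 0.0344, and 0.54 without replicate 1). In HT-1080 it was 177, 160 and 168 CPM against 185, 193 and 181, and did not pass the threshold with TMM scaling (log2 fold change 0.08, SE 0.05, edgeR, BH-adjusted p = 0.163). It did so with library size alone (0.15, BH-adjusted p = 0.0236). The lines differed by -0.62 (SE 0.14, edgeR, BH-adjusted p = 0.0122), and -0.51 without replicate 1. That difference missed the threshold with no filter (BH-adjusted p = 0.0814) and with the replicate block (0.0548). SLC3A2, the partner chain that SLC7A11 and SLC7A5 share, had log2 fold changes of 0.53 (HEK-293T) and -0.12 (HT-1080) that missed the threshold (edgeR, BH-adjusted p = 0.319 and 0.0974). Without replicate 1 the SLC3A2 value in HEK-293T was 0.12 (BH-adjusted p = 0.00169) and the interaction went from -0.73 to -0.29 (BH-adjusted p = 0.162 and 0.00262).

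All 5 other ATF4 and stress targets changed in HT-1080 (edgeR, BH-adjusted p under 0.05), 3 higher and 2 lower, against 65.3% of all genes. STC2 (ENSG00000113739.11), a secreted glycoprotein induced by ER stress, had the largest rise of the 39 genes. It was 248, 236 and 240 CPM in siNegative and 605, 605 and 592 in siHNRNPH1, 2.37-fold higher (log2 fold change 1.25, SE 0.04, edgeR, BH-adjusted p = 1.48e-08). In HEK-293T it was 65.5, 66.8 and 63.2 CPM against 62.9, 80.5 and 76.6, where replicates 2 and 3 were above the controls and replicate 1 just below them. The HEK-293T log2 fold change was 0.14, and 0.21 without replicate 1 (edgeR, BH-adjusted p = 0.516 and 1.85e-05). The lines differed by 1.04 (SE 0.11, edgeR, BH-adjusted p = 0.000145), and by 0.98 without replicate 1.

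DDIT4 (ENSG00000168209.6), which restrains mTORC1 under stress, was 10.2, 10.4 and 9.45 CPM in the HT-1080 siNegative libraries and 17.2, 17.1 and 15.4 in siHNRNPH1. The groups did not overlap, and DDIT4 rose by 0.66 on the log2 scale (SE 0.08, edgeR, BH-adjusted p = 4.64e-05). HEK-293T gave 28.8, 28.1 and 26.1 CPM against 26.6, 25.0 and 24.2, with a log2 fold change of -0.15 (edgeR, BH-adjusted p = 0.464) and of -0.23 without replicate 1 (BH-adjusted p = 2.51e-04). Between the lines the effect differed by 0.74 (SE 0.15, edgeR, BH-adjusted p = 0.00574), and 0.84 without replicate 1. TRIB3, a pseudokinase that restrains ATF4, also rose in HT-1080 (log2 fold change 0.37, edgeR, BH-adjusted p = 3.79e-04). For TRIB3 the lines differed by 0.09, and by 0.54 without replicate 1 (edgeR, BH-adjusted p = 0.922 and 5.71e-05).

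CHAC1 (ENSG00000128965.13), which breaks down glutathione and carries the ATF4-C/EBP letters shown above, fell in HT-1080. It was 3.70, 3.98 and 4.53 CPM in siNegative and 1.54, 1.90 and 1.86 in siHNRNPH1, 2.41-fold lower (log2 fold change -1.27, SE 0.14, edgeR, BH-adjusted p = 3.30e-05). The HEK-293T libraries held 1.85, 2.01 and 1.86 CPM against 2.37, 1.28 and 1.18, with replicate 1 above the controls and the other replicates below. Its HEK-293T log2 fold change was -0.26, and -0.69 without replicate 1 (edgeR, BH-adjusted p = 0.651 and 1.28e-04). For CHAC1 the lines differed by -1.10 (edgeR, BH-adjusted p = 0.0751) and -0.64 without replicate 1 (BH-adjusted p = 0.0113). VLDLR, a lipoprotein receptor, fell in HT-1080 as well (log2 fold change -0.49, edgeR, BH-adjusted p = 9.18e-05). For VLDLR the lines differed by -0.64, and by -0.81 without replicate 1 (edgeR, BH-adjusted p = 0.0607 and 7.95e-07).

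Among the sensors and factors of the UPR, XBP1 did not change past the threshold in either line. XBP1 (ENSG00000100219.17) was 91.4, 88.7 and 89.9 CPM in the HEK-293T siNegative libraries and 114, 93.2 and 98.2 in siHNRNPH1 (log2 fold change 0.16, SE 0.14, edgeR, BH-adjusted p = 0.534, and 0.03 without replicate 1). HT-1080 libraries held 51.6, 50.7 and 52.4 CPM in siNegative and 53.9, 52.7 and 52.9 in siHNRNPH1. The knockdown libraries were slightly above the controls as CPM, and after TMM scaling the log2 fold change was -0.02 (SE 0.04, edgeR, BH-adjusted p = 0.642). ERN1, which encodes IRE1, fell in HT-1080 (log2 fold change -0.86, SE 0.10, edgeR, BH-adjusted p = 5.63e-05). All 3 HEK-293T knockdown libraries of ERN1 were below the controls too (5.67, 9.84 and 10.1 against 14.1 to 15.0 CPM), with a log2 fold change of -0.81 that missed the threshold with replicate 1 (edgeR, BH-adjusted p = 0.0707) and of -0.61 that passed it without (BH-adjusted p = 4.72e-09). ATF6 rose in HT-1080 by 0.36 on the log2 scale (edgeR, BH-adjusted p = 2.98e-04), and EIF2AK3, which encodes PERK, had a value of 0.19 there that missed the threshold (BH-adjusted p = 0.0688).

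Of the ER chaperone and folding genes, 6 of 9 changed in HT-1080 (edgeR, BH-adjusted p under 0.05), 0 higher and 6 lower, close to the share of all genes called there (65.3%), and the median log2 fold change of the 9 was -0.16. At an unadjusted p under 0.05 (edgeR) the count was also 6, against 10990 of 16145 genes. DESeq2 called 6, all lower, against 9785 of 16145 genes (4814 higher and 4971 lower). This split depends on the scaling. With library size alone 4 changed, CRELD2 higher and PDIA4, SDF2L1 and MANF lower, against 65.2% of all genes (36.8% higher and 28.4% lower). The median of the 9 was then -0.09, against 0.07 over all genes, and with TMM it was -0.16, against 0.01. In HEK-293T 1 of 9 changed, DNAJB9, against 10.0% of all genes, and without replicate 1 the count was 5, 1 higher and 4 lower, against 61.8%. The interaction test called 0 of the 9, against 19.0% of all genes. It called 6, 1 more positive and 5 more negative, without HEK-293T replicate 1, against 49.0%. With all libraries, 4 had an unadjusted p under 0.05 (edgeR) and DESeq2 called 3, against 6844 and 5337 of 21276 genes. Of the 9, SDF2L1 and CALR had HEK-293T values of 0.41 and 0.27 with replicate 1 that turned to falls of -0.17 and -0.09 without it (edgeR, BH-adjusted p = 0.0132 and 0.00506). The SDF2L1 interaction was -1.22 with replicate 1 and -0.61 without it (edgeR, BH-adjusted p = 0.0791 and 2.50e-04). That of PDIA4 was -0.51 and -0.28 (edgeR, BH-adjusted p = 0.107 and 5.22e-04).

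HSPA5 (ENSG00000044574.9) encodes BiP, the main ER chaperone of the HSP70 family. In HT-1080 it was 1037, 1038 and 1021 CPM in siNegative and 1136, 1097 and 1080 in siHNRNPH1, so that all 3 knockdown libraries lay above the controls as CPM. After TMM scaling the log2 fold change was 0.03 (SE 0.04, edgeR, BH-adjusted p = 0.574). In HEK-293T the gene was at 615, 625 and 613 CPM against 837, 691 and 707, again above the controls in all 3 libraries and most in replicate 1. The HEK-293T log2 fold change was 0.25 (SE 0.14, edgeR, BH-adjusted p = 0.328), and 0.12 without replicate 1 (BH-adjusted p = 4.23e-04). The interaction was -0.30 (edgeR, BH-adjusted p = 0.237), and -0.14 without replicate 1 (BH-adjusted p = 0.0436).

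DNAJB9 (ENSG00000128590.5), a cochaperone of BiP that binds IRE1, fell in both lines. In HEK-293T it was 16.6, 16.2 and 17.1 CPM in siNegative and 10.0, 11.9 and 13.1 in siHNRNPH1, without overlap (log2 fold change -0.54, SE 0.12, edgeR, BH-adjusted p = 0.0455, and -0.47 without replicate 1). HT-1080 libraries held 34.4, 33.4 and 33.6 CPM against 31.2, 32.6 and 31.6, a smaller fall of 0.16 on the log2 scale (SE 0.05, edgeR, BH-adjusted p = 0.018). The HEK-293T call of DNAJB9 was lost with library size alone (BH-adjusted p = 0.066), with no filter (0.102), with the replicate block (0.157) and without any 1 library other than siHNRNPH1 replicate 1 (0.0708 to 0.211). The HT-1080 call was lost with library size alone (BH-adjusted p = 0.139) and without siHNRNPH1 replicate 1 or 3 (0.0705 and 0.0654). The calls of HSP90B1 (lost without siNegative replicate 1 or any 1 siHNRNPH1 library) and PDIA6 (lost without siHNRNPH1 replicate 1) were as unsteady. The remaining HT-1080 falls ran from -0.13 for HSP90B1, the ER form of HSP90, to -0.73 for SDF2L1, a partner of BiP cochaperones. Among them, PDIA4 and PDIA6 are disulfide isomerases and MANF is a secreted ER stress protein, at -0.27, -0.16 and -0.24. CALR, the lectin chaperone calreticulin, and CRELD2 did not pass the threshold in HT-1080 (log2 fold change -0.0041 and 0.18, edgeR, BH-adjusted p = 0.951 and 0.083).

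**Figure D4:**
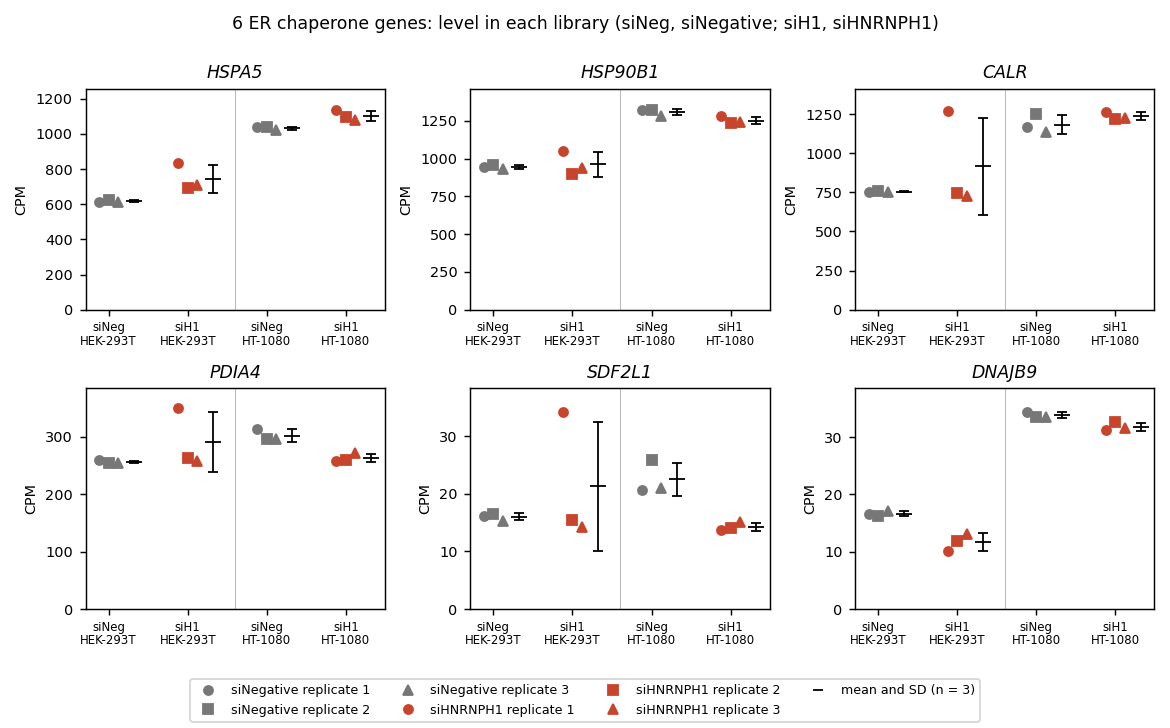
CPM (vertical axis, from 0) of HSPA5, HSP90B1, CALR, PDIA4, SDF2L1 and DNAJB9 in each library, drawn with the same symbols and the mean and SD of 3 libraries in black. In HEK-293T replicate 1 of siHNRNPH1 (red circle) is the highest library of its group for 5 of the genes, and for DNAJB9 it is the lowest.

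Of the 4 genes of ER-associated degradation, SYVN1 and SEL1L rose in HT-1080 and the others did not change past the threshold. SYVN1 (ENSG00000162298.19) encodes the ubiquitin ligase HRD1. It was 96.6, 89.3 and 97.5 CPM in the HT-1080 siNegative libraries and 144, 136 and 139 in siHNRNPH1, 1.41-fold higher and without overlap (log2 fold change 0.50, SE 0.05, edgeR, BH-adjusted p = 9.19e-06). The HEK-293T libraries held 51.3, 53.5 and 53.4 CPM against 63.2, 58.6 and 54.9, with a log2 fold change of 0.14 (edgeR, BH-adjusted p = 0.538) and of 0.05 without replicate 1 (BH-adjusted p = 0.264). The difference of 0.29 between the lines missed the threshold (edgeR, BH-adjusted p = 0.197), and passed it at 0.40 without replicate 1 (BH-adjusted p = 8.64e-05) and at 0.40 with library size alone (0.0356). SYVN1 overlaps MRPL49 in the annotation. SEL1L, the adaptor of SYVN1, rose in HT-1080 by 0.25 on the log2 scale (edgeR, BH-adjusted p = 0.00736).

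HERPUD1, a component of the SYVN1 complex, and EDEM1, a lectin that sends glycoproteins to degradation, had HT-1080 log2 fold changes of -0.01 and -0.12 (edgeR, BH-adjusted p = 0.858 and 0.102). EDEM1 and SEL1L were among the genes on which HEK-293T siHNRNPH1 replicate 1 departed most, and are singled out after their values were seen. EDEM1 was 49.0, 48.4 and 47.4 CPM in HEK-293T siNegative and 35.5, 89.4 and 93.2 in siHNRNPH1. Its log2 fold change was 0.55 with replicate 1 and 0.86 without it (edgeR, BH-adjusted p = 0.366 and 1.91e-15). SEL1L was 90.0, 92.3 and 93.5 CPM in siNegative and 28.5, 96.1 and 97.6 in siHNRNPH1. SEL1L replicate 1 was thus far below the controls, and the other replicates were just above them.

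Across the lines, 4 of 38 genes passed the threshold in HEK-293T and in HT-1080, PSAT1 and DNAJB9 in the same direction and ATF5 and CTH in opposite directions, against 6.89% of 15010 genes (5.42% in the same and 1.47% in opposite directions). The HEK-293T calls of all 4 were lost when any 1 siNegative library was left out and with the replicate block. Each of those fits called 20 genes or fewer over all genes tested. Without HEK-293T siHNRNPH1 replicate 1 the number was 20, of which 12 moved the same way and 8 the opposite way, against 46.9% of all genes (31.7% and 15.2%). A call in 1 line only is no sign of a difference: ATF6, called in HT-1080 alone when all libraries are used, had an interaction of 0.15 (SE 0.15, edgeR, BH-adjusted p = 0.551), and of 0.04 without replicate 1 (BH-adjusted p = 0.706). For ERN1 the interaction was -0.12 (SE 0.24, edgeR, BH-adjusted p = 0.804), but -0.30 without replicate 1, which passed the threshold (BH-adjusted p = 0.0478).

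Further genes of these pathways were read from lists drawn for the same purpose. Of 11 ISR kinases and eIF2 genes, 9 changed in HT-1080 (edgeR, BH-adjusted p under 0.05), 4 higher and 5 lower, against 65.3% of all genes, the share to set beside each HT-1080 count that follows. The largest falls were PPP1R15B, a subunit of the eIF2 phosphatase (-0.59), EIF2S1, the eIF2 alpha subunit itself (-0.51), and EIF2B5 (-0.43), and the largest rises were EIF2AK4, the GCN2 kinase (0.31), EIF2B1 (0.23) and EIF2B4 (0.23). Of 20 more ATF4 targets, 18 were tested in HT-1080 and 13 changed, 4 higher and 9 lower. The amino acid transporter SLC43A1 (-1.74), the bZIP factor JDP2 (-1.64) and the glycine transporter SLC6A9 (-1.38) fell most, and the stress cytokine GDF15 (0.49), the transporter SLC38A2 (0.36) and the leucine sensor SESN2 (0.18) rose most. In HEK-293T SLC43A1 alone of these targets changed (log2 fold change -1.40, edgeR, BH-adjusted p = 0.0265), against 10.0% of all genes, and without siHNRNPH1 replicate 1 the count was 13 of 18, 4 higher and 9 lower, against 61.8%. The interaction test called 6 of 19 of these targets, against 19.0% of all genes, all 6 with a more negative change in HT-1080. At an unadjusted p under 0.05 (edgeR) the count was 7, against 6844 of 21276 genes, and DESeq2 called 7, against 5337 of 21276 genes. Without replicate 1 the edgeR interaction test called 9, 2 more positive and 7 more negative, against 49.0%.

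Of 14 more ER folding genes, 11 changed in HT-1080, 8 higher and 3 lower (edgeR, BH-adjusted p under 0.05), against 65.3% of all genes. With library size alone all 14 changed, 11 higher and 3 lower, against 65.2% (36.8% higher and 28.4% lower). The ER oxidases ERO1A (0.75) and ERO1B (0.60) and the prolyl isomerase FKBP14 (0.65) rose most, and FKBP2 (-0.48), the lectin chaperone CANX (-0.29) and DNAJB11 (-0.24) fell. Of 9 more ER-associated degradation genes, 8 were tested in HT-1080 and 6 changed, with the lectins ERLEC1 (0.60) and OS9 (0.47) and EDEM2 (0.31) higher and the ubiquitin-conjugating enzyme UBE2J1 (-0.93), EDEM3 (-0.77) and DERL2 (-0.53) lower. In HEK-293T 0 of the 9 were called, and 7 without replicate 1, 3 higher and 4 lower, against 10.0% and 61.8%. The interaction test called 2, 1 in each direction, and 6 without replicate 1, 2 more positive and 4 more negative, against 19.0% and 49.0%. Of 7 other ER stress factors and proteases, 6 were tested in HT-1080 and 5 changed, all higher. They were led by CREB3L2 (1.07), a transcription factor anchored in the ER membrane, and by MBTPS1 (0.82) and MBTPS2 (0.74), the Golgi proteases that release ATF6. In HEK-293T, edgeR called 0 of the 11 ISR kinases and eIF2 genes, against 10.0% of all genes, and 9 of them without siHNRNPH1 replicate 1, against 61.8%. With all libraries, 4 had an unadjusted p under 0.05 (edgeR) and DESeq2 called 2, against 5267 and 3982 of 19966 genes. Of the 6 ER stress factors tested in HEK-293T, 1 changed, against 10.0% of all genes. This was ATF6B, a relative of ATF6, which was lower (log2 fold change -0.64, edgeR, BH-adjusted p = 0.0279). Without replicate 1 the count was 4 of 6, 3 higher and 1 lower, against 61.8% (30.5% higher and 31.3% lower). The interaction test called 2 of the 6, both more positive in HT-1080, against 19.0%, and 5 without replicate 1, 4 more positive and 1 more negative, against 49.0%.

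Since HNRNPH1 acts on splicing, the share of each gene's counts held by each of its transcripts was described too. Of 75 transcripts of 36 of the genes, 7 had shares that did not overlap between the siRNAs in both lines in the same direction, against 9.30% of all 27854 transcripts, so these genes did not stand out. ERN1 transcript ENST00000606895.2 held 7.42, 6.62 and 8.01% of the gene in HEK-293T siNegative and 43.5, 20.5 and 21.6% in siHNRNPH1. In HT-1080 it held 7.08, 11.1 and 9.54% against 32.4, 31.2 and 35.5%, so the share was higher in all knockdown libraries of both lines while the gene's total was lower. Shares of other ERN1 transcripts varied widely within groups: ENST00000680625.1 held 39.2, 83.4 and 37.4% in HT-1080 siNegative. The IsoSeq pools listed no multi-exon model of ERN1. VLDLR transcript ENST00000681306.1 fell from a mean share of 26.8 to 14.0% in HEK-293T; the HT-1080 means were 35.3 and 22.9%. The same means of MTHFD2 transcript ENST00000394053.7 were 35.8 and 46.9%, and 27.1 and 31.8%. Those of SYVN1 transcript ENST00000307289.10 were 0.50 and 14.5%, and 0.31 and 2.84%. The remaining transcripts belonged to HSPA5, PDIA6 and MTHFD2.

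The cut of XBP1 mRNA by IRE1 removes 26 bases. No source used here shows which of the 6 deposited XBP1 transcripts lacks them, so the share of the spliced form was not computed. In HT-1080, transcript ENST00000344347.5 held 7.34, 5.95 and 11.5% of XBP1 in siNegative and 2.06, 4.01 and 4.57% in siHNRNPH1, without overlap (exact two-sided permutation p = 0.1, the smallest that 3 against 3 can give). In HEK-293T it held 1.93% ± 0.39 (SD, n = 3) against 1.77% ± 0.34. Transcript ENST00000405219.7 held 40.7% ± 1.53 (SD, n = 3) of XBP1 in HEK-293T siNegative and 32.1% ± 9.02 in siHNRNPH1 (exact two-sided permutation p = 0.1). Its siHNRNPH1 replicate 3 lay only just below the controls (39.59 against 39.61 to 42.48%). In HT-1080 it held 0.55% ± 0.09 against 1.39% ± 1.25 (exact two-sided permutation p = 0.4). In HEK-293T the shares of ENST00000484256.1, ENST00000482720.1 and ENST00000403532.7 also gave an exact two-sided permutation p = 0.1. Their means were 5.45 against 4.07%, 0.04 against 0.01%, and 0.81 against 2.09%.

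The IsoSeq pools list transcript models without read counts, so each model counts once. Of the 39 genes, 31 had a model in the HEK-293T siNegative pool, 32 in its siHNRNPH1 pool, and 36 in each HT-1080 pool. The genes together had 214 and 322 models in the HEK-293T siNegative and siHNRNPH1 pools, which held 64705 and 94847 models in all, and 250 and 244 in the HT-1080 pools, which held 72186 and 68078. At XBP1 an intron of 26 nt at chr22:28796122-28796147 (coordinates of the files) was present in 1 of 4 models of HEK-293T siHNRNPH1, 1 of 6 of HT-1080 siNegative and 1 of 6 of HT-1080 siHNRNPH1. The 3 models of HEK-293T siNegative had no intron shorter than 314 nt. The spliced form was thus listed in 3 of the 4 pools, and with 1 pool per group and no counts its amount cannot be compared.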

How the data were processed

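Gene expression was measured in 12 short-read RNA-seq libraries, 3 in each of 4 groups, and transcript models in 4 IsoSeq pools, 1 per group. The deposited tables hold expected counts per transcript, made by the authors with RSEM on GRCh38.p13 per the submitters' processing notes. The RSEM version, annotation and strandedness are not given in the sources used here. Besides DDIT3, ATF5 and SYVN1, RefSeq spans of other annotated genes overlap ASNS, MTHFD2, SHMT2, ALDH1L2, SLC7A11, SLC7A5, VLDLR and CEBPB. They also overlap ATF6, EIF2AK3, HSP90B1, PDIA6 and CALR. How far these overlaps moved the levels was not tested. The deposited IsoSeq files list the exons of transcript models and give no read counts. The label descriptions name each column's sample, and 0 columns were left unmatched.

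The 39 genes, their roles and the further lists were chosen with earlier results of these data known. Expected counts were summed per gene identifier, rounded, filtered with filterByExpr (minimum count 10), scaled by TMM and tested with edgeR 4.0.16 (quasi-likelihood F test, robust, two-sided; R 4.3.3), per line and, for the interaction, over all 12 libraries. TMM lowers HT-1080 log2 fold changes against CPM: the median over all genes was 0.01 with TMM and 0.07 with library size alone. P-values were Benjamini-Hochberg (BH) adjusted over all genes tested, with a threshold of 0.05. Standard errors come from the F statistic. CPM values are unscaled. On simulated data the test recovered 59.5% of genes changed 3-fold in HEK-293T (19644 genes) and 93.5% in HT-1080 (15869 genes). Of its 128 calls in HEK-293T 9 were false, and of its 202 calls in HT-1080 15 were. The simulation gave each gene the same spread in all libraries of a line. It held no library that stands apart, so its rates may not hold for the HEK-293T data. Within every group, each pair of libraries differed by more than counting noise (chi-square per degree of freedom 1.78 to 847), so none was a copy.

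Values of every library are given for ATF4, DDIT3, XBP1, HSPA5, for genes called in HEK-293T or by the interaction, and for the 4 largest changes per direction in HT-1080; of each further list, the 3 largest called changes per direction in HT-1080 with a mean count of at least 50 are named. Transcript shares were described for transcripts with at least 10% of a gene in any group and a mean gene count of at least 50 in both lines. IsoSeq models were assigned where they lay at least 80% within a gene's RefSeq span. Alternatives were RLE scaling, library size alone, no filter, DESeq2 1.42.0, a replicate block, a spread shared by all 12 libraries, and leaving out each library.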

Additional observations from a re-analysis of the deposited data

Results flagged for a closer look

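The responses of 10 genes differed between the lines by the test of the interaction (edgeR, BH-adjusted p under 0.05, all 12 libraries). Given as the HT-1080 minus the HEK-293T log2 fold change, 7 were more negative in HT-1080: SLC7A11 at -1.69, PHGDH at -1.60, ASNS at -1.35, ATF5 at -1.22, MTHFD2 at -1.08, PSAT1 at -0.65 and SLC7A5 at -0.62. The other 3 were more positive in HT-1080, CTH at 1.96, STC2 at 1.04 and DDIT4 at 0.74. All 10 were also called without HEK-293T siHNRNPH1 replicate 1, the library that stood apart from its group. The call of SLC7A11 was lost when any other library was left out, and with library size alone, no filter and the replicate block. The call of SLC7A5 was lost with no filter and with the replicate block, and that of PSAT1 with no filter; the other 7 genes kept theirs in every fit run. The larger depth of the HEK-293T libraries and the different growth media go with the line, and cannot be told apart from it.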

How the results depend on the processing

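Over the settings that leave out no library, 322 values kept their direction and their side of the threshold, 32 were weaker, 4 stronger and 3 reversed. Over the fits that leave out 1 library, these numbers were 414, 45, 16 and 5. The tallies cover the genes chosen by rule for values of every library and, in HT-1080, also the other genes called there, and not all 39. The HEK-293T count of 5 called genes became 1 with no filter, 8 with a spread shared by all 12 libraries, 0 with the replicate block (7 at an unadjusted p under 0.05, edgeR) and 0 to 29 when 1 library was left out. Over all genes, the replicate block called 0 of 19966 (4169 at an unadjusted p under 0.05, edgeR), and each fit without 1 siNegative library called 20 or fewer. The HT-1080 count of 26 became 15 with the shared spread, where ATF5, CEBPB, DDIT3, DNAJB9, HSP90B1, MANF, PDIA4, PDIA6, SDF2L1, SEL1L and TRIB3 lost their call, and 23 to 28 when 1 library was left out. The count of 10 genes that differed between the lines became 16 with DESeq2 and 9 to 27 when 1 library was left out. Over all genes, DESeq2 called 5337 of 21276 against 4034 with edgeR. The cause of these shifts was not tested. The values that reversed were not called with all libraries: in HEK-293T, MTHFD2 at 0.02 with the shared spread and -0.12 to 0.08 over the fits without 1 library, SLC7A11 at -0.15 with the replicate block and -0.22 to 0.44 over those fits, and DDIT3 at -0.10 to 0.68; in HT-1080, XBP1 at 0.04 with library size alone; and the difference of DDIT3 between the lines at -0.42 to 0.42. Over all 39 genes, the HEK-293T value of 15 turned without siHNRNPH1 replicate 1, and 8 of them were called after turning: CEBPB, SHMT2, MTHFD2, TRIB3, EIF2AK3, HSP90B1, SDF2L1 and CALR. Of the differences between the lines 5 turned, and DDIT3 at 0.42 was called after turning (edgeR, BH-adjusted p = 0.026). No gene called with all libraries changed direction in any fit. Same-numbered libraries correlated weakly in their deviations from the group means, at 0.10, 0.11 and 0.03 in HEK-293T and at 0.04, 0.13 and 0.06 in HT-1080. Differently numbered libraries correlated at -0.10 to 0.07 in HEK-293T and at -0.13 to 0.07 in HT-1080. Not every library correlated best with its own number in either line, and whether the numbers mark a pairing was not tested. The replicate block gave 26 calls in HT-1080, against 10504 of 16145 genes, and 8 between the lines, against 2535 of 21276 genes. The planned share of the spliced XBP1 form was not run, since no source used here names its transcript. The depth in HEK-293T was about 4 times that in HT-1080, and with all libraries its errors were wider all the same. Without siHNRNPH1 replicate 1 they were narrower than in HT-1080 (ATF4 0.03 against 0.07) for all genes tested in both lines but CEBPB, ATF5 and DNAJB9. NUPR1, with a mean of 6.2 counts in HT-1080, could not be tested there.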
